A study of Homo sapiens with 4 samples.

Results

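The nuclear-encoded subunits of the respiratory chain and of the ATP synthase were followed in THP1 cells after transfection with a miR-511-5p mimic. Members were chosen by gene name: every feature (distinct probe) of the array outside the control spots whose gene symbol starts with ATP5 followed by a letter or with UQCR, or is an NDUFA, NDUFB, NDUFC, NDUFS or NDUFV symbol, a COX4 to COX8 symbol, or SDHA to SDHD. This gave 107 features of 85 genes, out of 34127 features with 27193 gene names. The rule itself used no measured value, though it was chosen with earlier results of these data known. By complex there were 36 genes for complex I, 4 for complex II, 8 for complex III, 18 for complex IV and 18 for complex V. Subunits with other symbols are not members, among them CYC1 of complex III. The last gene, COX4NB (now EMC8), belongs to no complex of the chain and matched by name only. Of the complex V names, ATP5S, ATP5SL and ATP5L2 are no canonical ATP synthase subunits and were left out of the medians by complex below. Those medians rest on the 79 of 81 canonical subunit genes that were tested.

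THP1 is a human monoblastic acute myeloid leukemia cell line that carries the MLL-AF9 fusion gene, and all RNA came from this 1 line. A mimic of this kind is a small synthetic RNA duplex from which transfected cells load the mature miRNA. Cells received a single dose of 30 nM of the miR-511-5p mimic or of the negative control #1 mimic, stayed in low-serum medium shared by both treatments, and were harvested on day 2. Each of 2 independent experiments gave 1 array per treatment, so that each treatment and each experiment is represented by 2 arrays, all on 1 slide. The effect of the mimic on these transcripts was asked first, and their difference between the experiments second.

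The respiratory chain is built into the inner mitochondrial membrane. Complex I takes electrons from NADH and complex II, which is also the succinate dehydrogenase of the citric acid cycle, takes them from succinate. Complex III passes them on to cytochrome c and complex IV from there to oxygen, while complexes I, III and IV pump the protons that drive ATP synthesis by complex V. Most of the subunits are encoded in the nucleus, and their promoters are known for sites of NRF1, of the ETS factor GABP, of YY1 and of SP1.

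The mature miRNA that the mimic supplies is shown with its seed (bases 2 to 8) in capitals, as the part that pairs with targets. RefSeq places hsa-miR-511-5p at chr10:17845122-17845142 on the plus strand of GRCh38.p14.
hsa-miR-511-5p: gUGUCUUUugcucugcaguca
The following promoters are shown because SDHB had the largest mimic difference upwards, SDHD had the most features past the threshold between experiments, and COX6A1 and COX6A2 are the broadly expressed and the muscle isoform of the same complex IV subunit. Each line holds the 250 bases before the RefSeq start site on GRCh38.p14, 5′ to 3′ on the strand of the gene, with matches to the searched motifs in capitals. SDHB is at chr1:17054033-17054282, minus strand, SDHD at chr11:112086623-112086872, plus strand, COX6A1 at chr12:120437863-120438112, plus strand, and COX6A2 at chr16:31428361-31428610, minus strand.
SDHB: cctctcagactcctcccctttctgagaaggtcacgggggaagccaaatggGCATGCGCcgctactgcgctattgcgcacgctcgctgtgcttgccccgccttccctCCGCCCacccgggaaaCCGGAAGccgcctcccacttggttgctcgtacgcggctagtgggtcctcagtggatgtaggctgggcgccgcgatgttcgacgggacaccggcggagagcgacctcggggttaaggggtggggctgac
SDHD: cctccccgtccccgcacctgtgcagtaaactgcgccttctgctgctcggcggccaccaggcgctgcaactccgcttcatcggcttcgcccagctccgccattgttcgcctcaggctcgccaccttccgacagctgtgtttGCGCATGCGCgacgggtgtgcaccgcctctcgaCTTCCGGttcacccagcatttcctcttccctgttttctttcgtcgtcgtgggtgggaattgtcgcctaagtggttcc
COX6A1: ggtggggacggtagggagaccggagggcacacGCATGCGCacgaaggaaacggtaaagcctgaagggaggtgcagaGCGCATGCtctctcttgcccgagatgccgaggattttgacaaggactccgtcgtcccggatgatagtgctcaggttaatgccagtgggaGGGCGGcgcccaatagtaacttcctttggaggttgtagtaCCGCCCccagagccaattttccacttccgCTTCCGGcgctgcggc
COX6A2: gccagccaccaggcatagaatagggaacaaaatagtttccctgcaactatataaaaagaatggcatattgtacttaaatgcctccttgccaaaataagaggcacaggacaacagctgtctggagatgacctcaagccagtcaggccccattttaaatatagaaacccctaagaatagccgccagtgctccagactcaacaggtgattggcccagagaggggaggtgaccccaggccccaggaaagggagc
The motifs were GCATGCGC (the core of the NRF1 site), CCGGAAG (ETS), AAGATGGCG (YY1) and GGGCGG (SP1), each searched on both strands. The motifs may overlap, and the NRF1 letters overlap their own reverse complement. The first capital stretch of SDHD therefore counts as 2 NRF1 matches, and its other capital stretch is 1 ETS match. The SDHB stretch held 1 NRF1, 1 ETS and 1 SP1 match, and that of COX6A1 held 2 NRF1, 1 ETS and 2 SP1 matches. In the COX6A2 stretch, none of these letters was present. RefSeq windows of 300 bases, from 250 before to 50 after the start, were at hand for 67 of the 81 canonical genes. Of those, 14 (20.9%) held the NRF1 letters in a window, as did 3.68% of 27305 genes with a window. The ETS letters were in 20 (29.9%, against 12.2% of all), the YY1 letters in 9 (13.4%, against 2.14%), and the SP1 letters in 41 (61.2%, against 48.3%). A match is a run of letters and says nothing of binding in these cells.

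Between 22130 and 23647 features per array were well above background, and the 4 arrays shared their slide and scan. As a check of the label, 9 of the 10 monocytic marker genes found on the array were well above background on all arrays, among them CD33 (log2 intensity 13.66 to 13.79), SPI1 and CEBPA. The fibroblast markers COL1A1, COL3A1 and LUM and the epithelial markers EPCAM and CDH1 were above background on 0 arrays. DCN, also a fibroblast marker, was above background on 1 array, the control of experiment 1 (3.85). KRT8 and KRT18 were above background on all 4 arrays, as were 3 of 5 T and B cell markers and 3 of 4 erythroid markers. Fewer cells with a transcript and less of it per cell cannot be told apart in RNA from whole cultures.

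Nearly all members were measured. Well above background on all 4 arrays were 103 of the 107 features, which represent 82 of the 85 genes, and 104 features of 83 genes passed the filter on dim signals and were tested. COX4I2, the lung isoform of subunit 4, was above background on 3 arrays. COX7A1, the heart and muscle isoform of subunit 7a, COX7B2 and 1 of 2 ATP5L2 features were well above background on 0 arrays. No spot was saturated. Intensities of different probes are not set against each other here, since probes differ in how strongly they bind.

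After miR-511-5p transfection, none of the nuclear-encoded subunits changed past the threshold. Of 104 member features, 0 had an unadjusted p below 0.05 in limma, where 498 of 22638 features (2.2%) did over the whole array, 1.27% higher and 0.932% lower with the mimic. After Benjamini-Hochberg adjustment 0 features passed over the whole array, where the smallest limma adjusted p was 0.790, and every member had an adjusted p of 0.9999 or above. For the brightest feature of each gene, the median log2 difference, miR-511-5p minus control, was -0.0084, beside 0.0098 over all tested features. Differences ran from -0.31 (NDUFA4) to 0.31 (SDHB), and 0 members differed by more than 0.5, as 825 of all tested features did. Arrays of the treatments did not overlap for 21 member features (20.2%), 11 higher and 10 lower, against 25.6% of all features.

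How large a change the data leave room for is given by the 95% intervals, which come from the moderated variances of limma. They lay within 0.5 on the log2 scale in either direction for 91 of the 104 member features and within 1 for 101. The standard error of a mimic difference had a median of 0.10 (range 0.088 to 0.42) for members and of 0.12 for all features. With 2 arrays per treatment an exact permutation test cannot go below p = 0.333. The limma p-values set each difference against the spread of arrays within a group, with variances moderated over all tested features. They rest on these 4 arrays only.

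**Figure D1:**
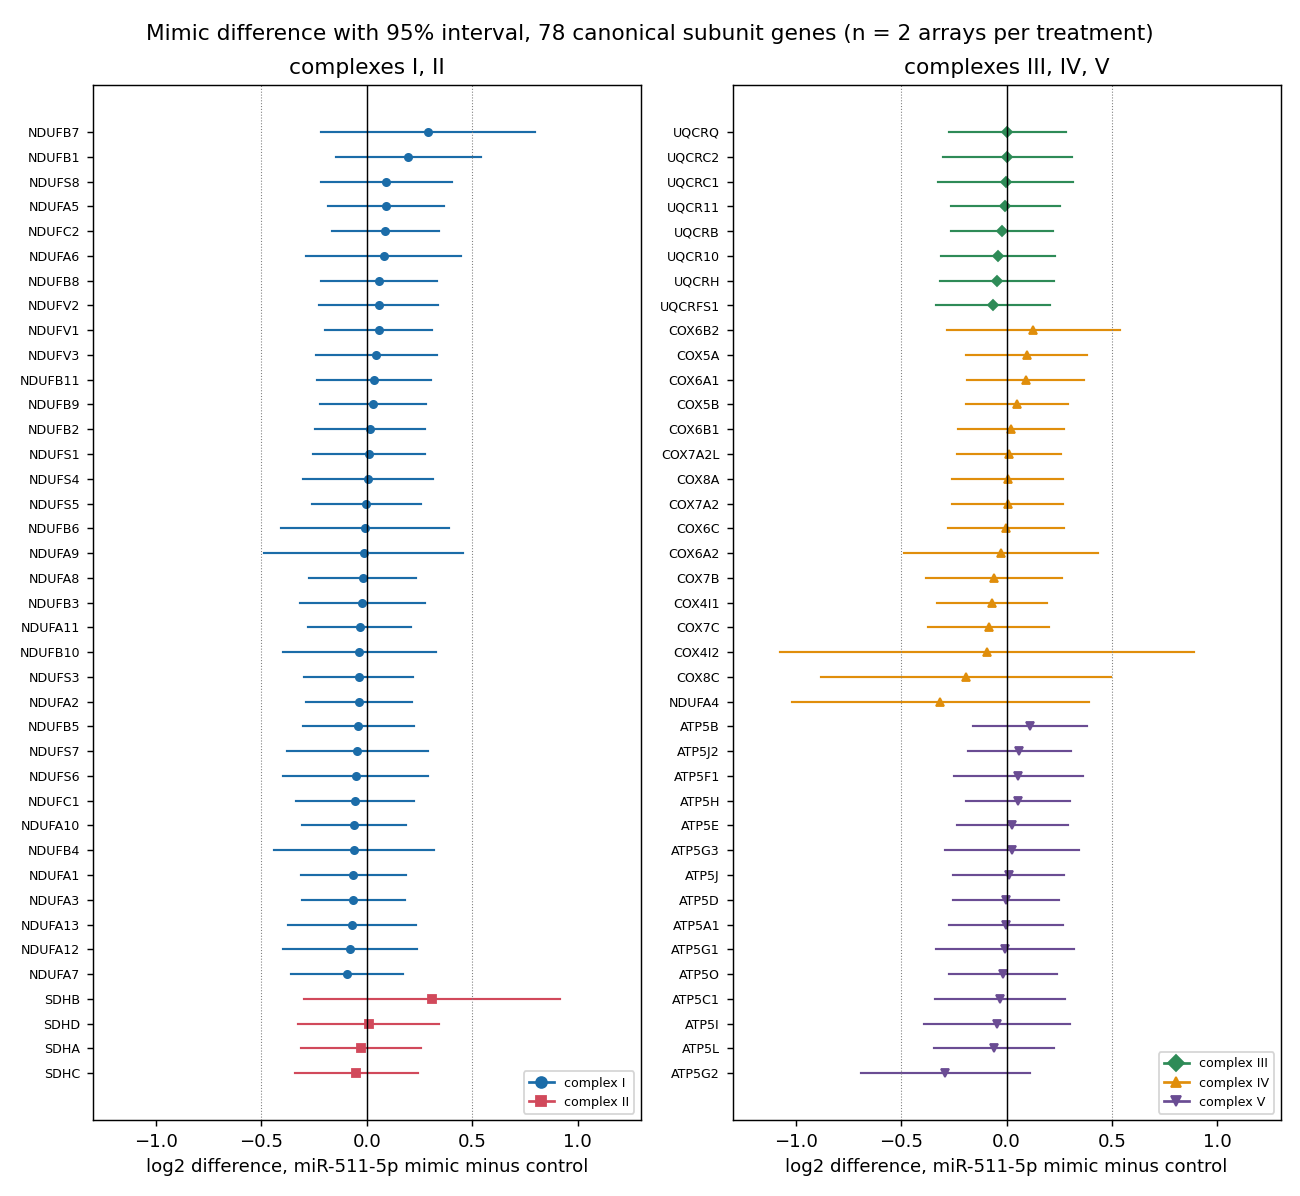
Log2 difference, miR-511-5p mimic minus control mimic, of the brightest feature of each of 78 canonical subunit genes (x axis, log2 units; y axis, genes by complex). Points are limma estimates from 2 arrays per treatment, lines their 95% intervals, and dotted lines mark 0.5 in either direction. Every interval crosses 0, and 70 of 78 stay within the dotted lines.

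Complex I, with 36 genes, had a median mimic difference of -0.017, with 15 genes higher and 21 lower. NDUFV1, which carries the NADH-binding site, stood at 15.04 with the control and 15.16 with the miR-511-5p mimic in experiment 1, and at 15.11 and 15.10 in experiment 2. NDUFS1, the largest iron-sulfur subunit, stood at 14.26 and 14.27, then at 14.34 and 14.35. The control and mimic arrays of these core subunits lay within 0.12 of each other in each experiment. The largest difference upwards was that of NDUFB7, an accessory subunit (probe at chr19:14677745-14682759, hg19), with 13.53 and 13.55 in experiment 1 and 13.06 and 13.61 in experiment 2. Here 1 array, the control of experiment 2, was low and the other 3 lay within 0.085. Its difference was 0.29 (SE 0.19, 95% interval -0.22 to 0.80). Without the control array of experiment 1 the fit gave 0.52 and passed the unadjusted threshold, with the low array as the only control. NDUFA7, also accessory, stood at 13.86 and 13.79, then at 13.97 and 13.84, and had the largest difference downwards among the brightest features, -0.10 (SE 0.097). Dimmer features of NDUFA10 and NDUFB8 gave -0.16 and -0.15. The intervals of 34 of the 36 genes stayed within 0.5.

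In complex II the 4 genes had mimic differences from -0.051 (SDHC) to 0.31 (SDHB), with 2 higher and 2 lower. SDHB, the iron-sulfur subunit (probe at chr1:17354342-17355135, hg19), stood at 12.40 with the control and 12.96 with the mimic in experiment 1, and at 12.99 and 13.05 in experiment 2. The control of experiment 1 was 0.56 below the nearest of the other arrays, which lay within 0.082 of each other. The difference was 0.31 (SE 0.22, 95% interval -0.30 to 0.92), and without the control array of experiment 2 it became 0.60 and passed the unadjusted threshold. SDHA, the flavoprotein with the succinate site, stood at 14.46 and 14.48, then at 14.61 and 14.53 at its brightest feature. The 3 other SDHA features gave differences of -0.17, 0.19 and -0.05, none past the threshold, so that the probes of this gene did not share a sign. SDHC, a membrane anchor at the quinone site, differed by -0.05 at its brightest feature and by -0.09 at the next. Its dim feature (chr1:161326492-161326551, hg19) stood at 9.34 with the control and 9.88 with the mimic in experiment 1, and at 10.49 and 9.65 in experiment 2. The order of the treatments thus turned between experiments, and the difference was -0.15 (SE 0.42, 95% interval from -1.3 to 0.99). Without the control array of experiment 1 it was -0.73 and passed the unadjusted threshold.

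Complex III varied least at the brightest feature of each gene, with a range of mimic differences from -0.063 to 0.0042 over 8 genes and all 8 intervals within 0.5. Beyond that range, a dimmer feature of UQCRB gave 0.092 (SE 0.12) and a dimmer feature of UQCR10 gave 0.0079. UQCRFS1, the Rieske iron-sulfur protein, stood at 15.44 and 15.47 in experiment 1 and at 15.51 and 15.36 in experiment 2, with control first. It had the largest difference downwards (-0.063, SE 0.099), with opposite signs in the experiments. UQCRQ, at 17.01 and 16.97, then 17.05 and 17.11, was highest among the brightest features with a difference of 0.0042 (SE 0.10). UQCRH, the hinge protein, stood at 17.07 and 16.94, then at 16.96 and 17.00, a difference of -0.046, and its other feature gave -0.024. In 7 of the 8 genes, the sign of the difference turned between experiments, as it did for 11100 of 22638 features over the array.

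Complex IV had a median mimic difference of 0.00053 over 16 tested genes, with 8 genes higher and 8 lower. COX4I1, the broadly expressed form of subunit 4, stood at 15.76 with the control and 15.73 with the mimic in experiment 1, and at 15.86 and 15.75 in experiment 2. The lung isoform COX4I2 gave 4.41 and 3.93, then 3.43 and 3.72, close to background. Its difference was -0.09 with an interval from -1.08 to 0.89, so that this probe bounds a change poorly, and without the control of experiment 2, the array on which it was not above background, it was -0.58 and passed the unadjusted threshold. NDUFA4, first described in complex I and now listed as a subunit of complex IV under the name COXFA4 (probe at chr7:10973185-10973244, hg19), stood at 16.16 and 15.59, then at 16.32 and 16.27. The mimic array of experiment 1 lay 0.57 below the other 3, which ranged over 0.16. The difference of -0.31 (SE 0.26, 95% interval -1.02 to 0.39) was the lowest value of all members, and without the mimic array of experiment 2 it was -0.65 and passed the unadjusted threshold.

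No isoform of complex IV passed the threshold for the mimic. COX6A1 stood at 16.37 and 16.56, then at 16.42 on both arrays, and the muscle isoform COX6A2 at 4.62 and 4.35, then at 4.54 and 4.76. COX6B1 stood at 15.91 and 15.97, then at 15.98 and 15.97, a difference of 0.02, and COX6B2, the testis isoform, differed by 0.13 (SE 0.15). Its brighter feature was at 13.04 and 13.15, then at 12.78 and 12.92. Its other feature stood far lower, at 5.70 and 5.75, then at 5.70 and 5.86, a difference of 0.11 (SE 0.096). Both features were higher with the mimic in both experiments. COX7A2 stood at 17.03 and 16.99, then at 17.06 and 17.10, a difference of 0.0047. COX7A2L, which takes part in supercomplexes of the chain, stood at 13.49 and 13.50, then at 13.44 and 13.47, a difference of 0.013. COX7B stood at 15.24 and 15.12, then at 15.33 on both arrays, a difference of -0.061. COX8A, the broadly expressed form of subunit 8, stood at 16.09 and 16.05, then at 16.11 and 16.16, a difference of 0.0053. COX8C, the testis form, stood at 4.83 and 4.17, then at 4.27 and 4.55, with signs that turned between experiments. COX5B, part of the matrix side of the complex, passed only a plain t-test of each averaged probe, at a difference of 0.05.

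Complex V had a median mimic difference of -0.0036 over 15 canonical genes, 7 higher and 8 lower. ATP5A1, the alpha subunit of the catalytic head, stood at 16.44 with the control and 16.50 with the mimic in experiment 1, and at 16.56 and 16.49 in experiment 2. ATP5B, the catalytic beta subunit, stood at 15.79 and 15.84, then at 15.78 and 15.96, and had the largest difference upwards (0.11, SE 0.098). ATP5G1, ATP5G2 and ATP5G3 encode the same mature ring subunit c with different import sequences. ATP5G2 (probe at chr12:54059077-54059136, hg19) stood at 16.67 and 16.20, then at 16.65 and 16.54. Both mimic arrays were below both control arrays, with the mimic array of experiment 1 lowest by 0.34. Its difference was -0.29 (SE 0.15, 95% interval -0.69 to 0.11), the smallest p of all members, and without the mimic array of experiment 2 it was -0.46 and passed the unadjusted threshold. ATP5G1 stood at 14.26 and 14.33, then at 14.48 and 14.40, a difference of -0.0084 (SE 0.12). ATP5G3 stood at 17.22 and 17.27, then at 17.40 on both arrays, a difference of 0.026 (SE 0.12). The difference of ATP5G2 from its sister genes was not tested.

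The experiments did not share the direction of most mimic differences. Both experiments gave the same sign for 49 of 104 member features, 19 higher and 30 lower, and for 11538 of 22638 features in all. The member median, brightest feature of each gene, was -0.024 in experiment 1 and 0.0078 in experiment 2. It was 0.033 without the mimic array of experiment 1 and 0.018 without the control of experiment 2, and -0.036 and -0.043 without the control of experiment 1 and the mimic of experiment 2, so that its sign is set by single arrays. The 4 genes with the largest differences, NDUFA4, SDHB, NDUFB7 and ATP5G2, each had 1 array apart from the rest.

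**Figure D2:**
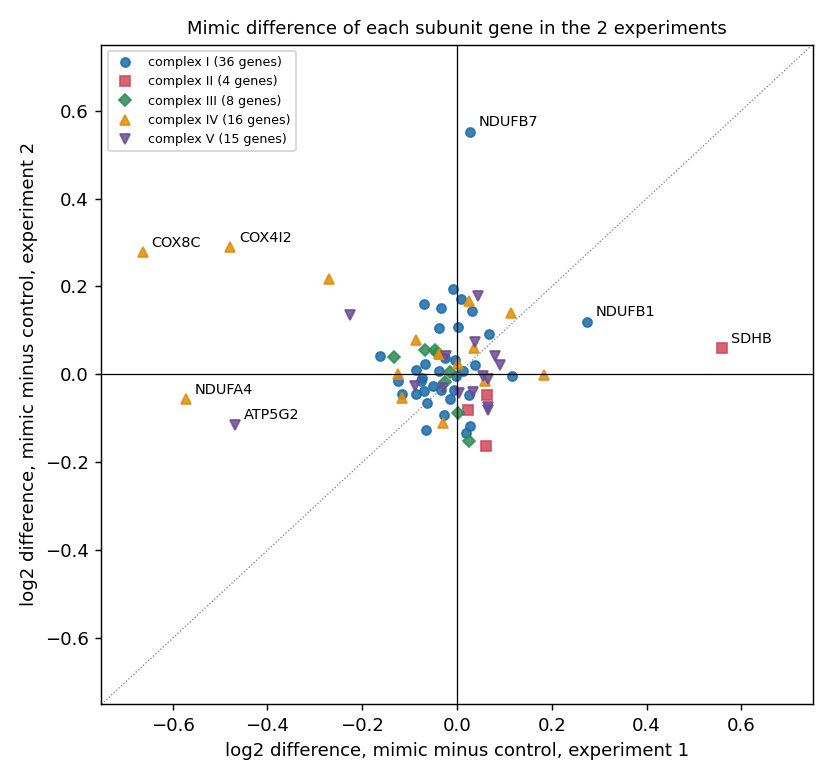
Log2 difference, miR-511-5p minus control, of 79 canonical subunit genes in experiment 1 (x axis) and experiment 2 (y axis), in log2 units, each from 1 array per treatment. Each point is a gene and the dotted line marks equal differences. SDHB (0.56 and 0.06), NDUFA4 (-0.57 and -0.06) and NDUFB7 (0.03 and 0.55) lie far out along 1 axis only.

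Between the experiments the members moved more evenly. Of 104 member features 76 were higher in experiment 2 (73.1%), where 47.5% of all tested features were. Of the citric acid cycle genes 13 of 17 were higher in experiment 2 (median difference 0.082). So were 18 of 22 genes of mobile carriers and ATP export (median 0.097). The latter list includes CYC1 (0.084), a complex III subunit outside the naming rule. Other related lists shifted less. Higher were 17 of 27 assembly factors (median 0.033), 9 of 15 biogenesis regulators (0.011) and 7 of 12 mitochondrially encoded genes (0.0049). For the members the median difference, experiment 2 minus experiment 1, was 0.069 at the brightest feature of each gene, beside -0.010 over all tested features. It was positive within each treatment, 0.057 on the control and 0.082 on the mimic arrays, with 70 and 80 of the 104 features higher. By complex it was 0.069 for complex I, 0.13 for complex II, 0.047 for complex III, 0.057 for complex IV and 0.060 for complex V. Both arrays of experiment 2 lay above both of experiment 1 for 47 member features (45.2%, against 22.6% of all features) and below for 7 (6.73%, against 26.8%). The shift is small: members differed by a median of 0.076 in size, and all tested features by 0.12. Which conditions differed between the experiments is not given in the sources used here.

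Single members rarely passed the threshold in this comparison. An unadjusted p below 0.05 in limma was reached by 7 of 104 member features (6.73%), fewer in share than the 14.1% of all 22596 tested features. Of these 6 were higher in experiment 2 (5.77%, against 5.66% of all) and 1 lower (0.962%, against 8.46%). The lower call was COX4I2, a dim gene whose direction the filter favoured. After Benjamini-Hochberg adjustment 0 members and 0 features in all remained, with a smallest adjusted p of 0.252 among members and 0.063 over all features. With treatment as a term in the fit, which pairs the arrays by treatment, 2 of the 7 stayed past the unadjusted threshold, NDUFA9 and an SDHD feature. In that fit 2690 of 22596 features passed in all. When single arrays were left out, the member median lay between 0.055 and 0.079. The median over all tested features then lay between -0.033 and -0.0031. Of the 7 called features, 0 kept the call in every fit that left out 1 array.

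Of the 7 called features 4 belonged to accessory subunits of complex I. NDUFA9, at the junction of the arms of the complex (probe at chr12:4777675-4778950, hg19), stood at 11.39 with the control and 11.35 with the mimic in experiment 1 and at 11.66 and 11.67 in experiment 2. Its arrays of each experiment lay within 0.037 of each other, and the difference was 0.30 (SE 0.067, 95% interval 0.11 to 0.49, limma adjusted p = 0.252). NDUFB6 stood at 12.59 and 12.62, then at 12.86 and 12.82, a difference of 0.23 (SE 0.068, limma adjusted p = 0.309). NDUFB10 stood at 14.87 and 14.86, then at 15.09 and 15.04, a difference of 0.20 (SE 0.069, limma adjusted p = 0.347). For NDUFA12 the dimmer of 2 features passed (0.24, SE 0.081, limma adjusted p = 0.340), and the brighter gave 0.15 (SE 0.079) and did not. With treatment as a term NDUFA9 kept its call (SE 0.078), and NDUFB6, NDUFB10 and NDUFA12 did not (SE 0.080, 0.078 and 0.077). NDUFA9 lost its call without the mimic array of experiment 1 (0.28) and without either array of experiment 2 (0.30 in both cases), and the others lost theirs whichever array was left out. In all, 25 of 36 complex I genes were higher in experiment 2, and NDUFB7 had the largest value downwards (-0.20, SE 0.21, limma adjusted p = 0.672). Its control array of experiment 2 was the low one, and without the mimic array of that experiment it was -0.49 and passed the unadjusted threshold.

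All 4 complex II genes were higher in experiment 2 at their brightest feature, but other features of SDHA (-0.093 and -0.036) and SDHC (-0.065) were lower. SDHD, a membrane anchor subunit, has 3 features at chr11:111965707-111965766, chr11:111965758-111965817 and chr11:111965866-111965925 (hg19), of which the first pair overlap, and features of 1 gene are not independent. The first stood at 11.59 and 11.62 in experiment 1 and at 11.82 and 11.78 in experiment 2, a difference of 0.20 (SE 0.068, limma adjusted p = 0.346), a call that was lost with treatment as a term (SE 0.079). The next stood at 10.67 and 10.29, then at 10.95 and 10.92, a difference of 0.46 (SE 0.15, limma adjusted p = 0.335), which kept its call with treatment as a term (SE 0.13). It lost the call without the mimic array of experiment 1, its lowest, where the difference was 0.26, and without the mimic (0.47) or the control array (0.44) of experiment 2. The first feature lost its call whichever array was left out. The brightest gave 0.16 (SE 0.071) and did not pass. SDHB differed by 0.33 (SE 0.21, limma adjusted p = 0.527), with its control array of experiment 1 low, and by 0.61 and past the unadjusted threshold without the mimic array of that experiment. SDHA differed by 0.10 (SE 0.072).

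Complexes III to V held 1 call, at a dim gene. COX4I2 had a measured difference of -0.60 (SE 0.21) between experiments, with 1 of its 4 arrays, the control of experiment 2, not above background. It passed the filter on dim signals only through experiment 1, where it was higher, so that the filter favoured this direction. Its values are given as measured, and nothing is drawn from the call. It was not tested where all 4 arrays had to be above background, and there the only lower call was that of COX6B2. With treatment as a term COX4I2 lost its call (SE 0.24). The call was also lost without the control array of experiment 1 (-0.36) and without either array of experiment 2 (-0.74 without the mimic and -0.45 without the control). COX6B2 had a difference of -0.25 (SE 0.092, limma adjusted p = 0.365) at its brighter feature and 0.052 at the other. NDUFA4 had the largest value upwards in complex IV (0.42, SE 0.21, limma adjusted p = 0.463), with its mimic array of experiment 1 low, and it was 0.71 and past the unadjusted threshold without the control array of that experiment. In complex III UQCRC1, a core protein of the matrix side, differed by 0.16 (SE 0.066) and UQCR11 by -0.030. In complex V the ring subunit genes ATP5G1, ATP5G2 and ATP5G3 differed by 0.15, 0.16 and 0.15 (SE 0.075, 0.18 and 0.069), of which ATP5G2 became 0.39 and passed the unadjusted threshold without the control array of experiment 1. ATP5B differed by 0.059 and ATP5E, the epsilon subunit, by -0.068.

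**Figure D3:**
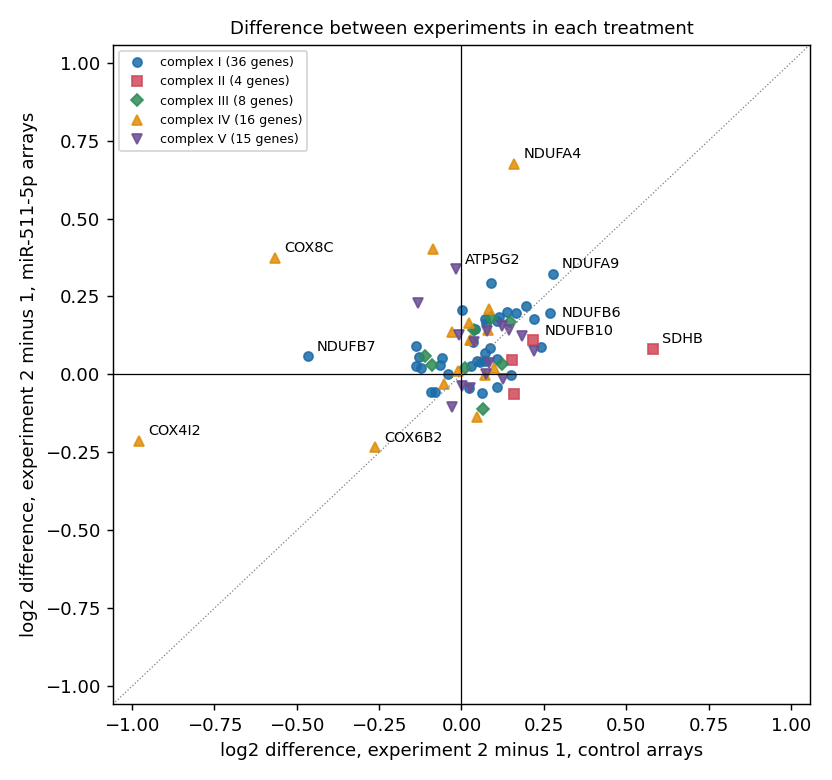
Log2 difference, experiment 2 minus experiment 1, of 79 canonical subunit genes on the control arrays (x axis) and on the miR-511-5p arrays (y axis), in log2 units, each from 1 array per experiment. Most genes are above 0 on both axes, with NDUFA9 (0.28 and 0.32) near the dotted line of equal differences. COX4I2 (-0.98 and -0.21) lies far to the left, a direction that the filter on dim signals favoured.

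**Figure D4:**
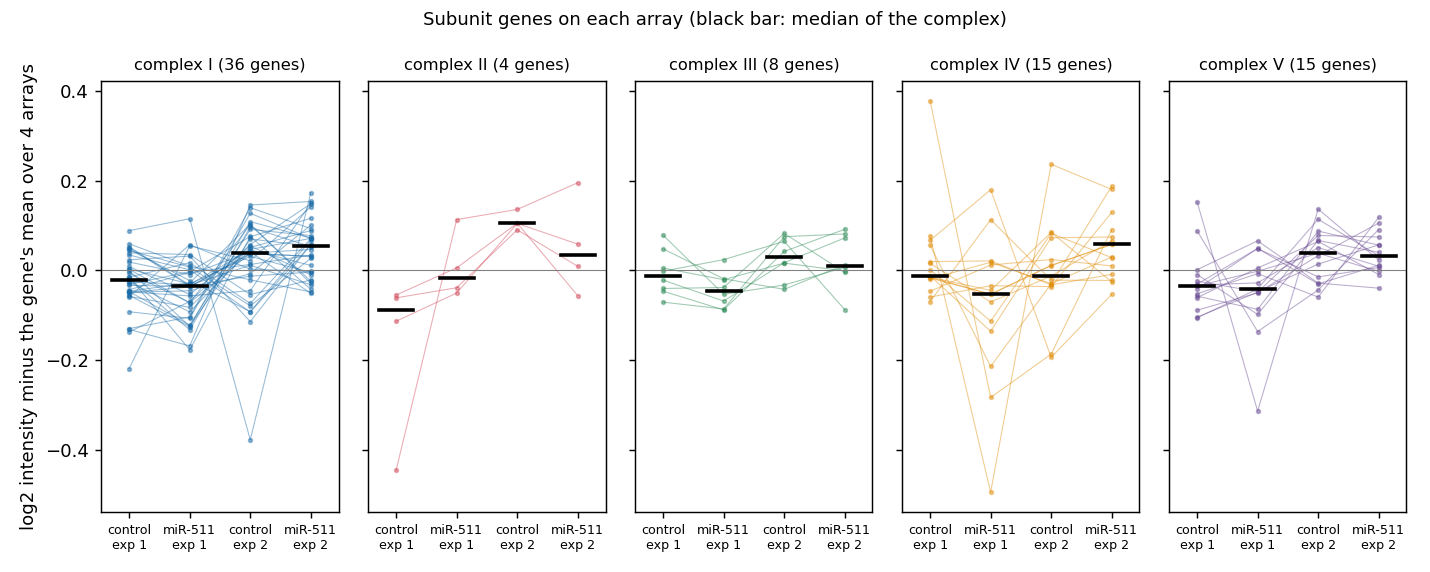
Log2 intensity of each canonical subunit gene above background on all 4 arrays, minus its own mean over these arrays (y axis, log2 units), for the 4 arrays (x axis), in 1 panel per complex. Thin lines are genes and black bars medians. In complex I the medians are -0.022 and -0.035 on the control and mimic arrays of experiment 1 and 0.039 and 0.054 on those of experiment 2.

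Some cell type and pathway genes also passed the unadjusted limma threshold between the experiments, as 14.1% of all tested features did. Of the 10 monocytic markers tested 8, MEIS1 among them, were lower in experiment 2, as were 11861 of 22596 features over the array. PTPRC (-0.30) and CSF1R (-0.25) passed the unadjusted limma threshold, though neither did with treatment as a term. MEIS1 was at least 1.80-fold lower in experiment 2, but it was well above background in experiment 1 only and passed the filter through those arrays alone. Its direction, also in the count of lower markers, was thus set by the filter. The summed linear intensity of these markers was 82752 and 85929 on the arrays of experiment 1 and 83565 and 75960 on those of experiment 2. Of the markers of other cells, KRT18 (-0.34) and HBG1 (-0.29) were lower and CD3D (0.21) was higher in experiment 2 past the unadjusted limma threshold, and of these KRT18 kept its call with treatment as a term. ALAS2 was lower too, with its control array of experiment 2 not above background, and passed the filter only through experiment 1. Their part in the members' shift was not tested.

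Genes that build, supply or regulate the chain were read from lists of other pathway genes. Between experiments 4 of 27 assembly factors and 1 of 17 citric acid cycle genes passed the unadjusted limma threshold. So did 1 of 15 biogenesis regulators and 4 of 22 carrier genes, where 14.1% of all tested features did. Whether these shares differ was not tested. Of 27 assembly factors on the array 0 passed the threshold for the mimic, and between experiments NDUFAF4 (0.27) and NUBPL (0.33), which help assemble complex I, were higher and ATPAF2 (-0.25) and COX19 (-0.35) lower in experiment 2. None of the 17 citric acid cycle genes passed for the mimic, and OGDH (0.24), of the 2-oxoglutarate dehydrogenase, was higher in experiment 2. Of 14 biogenesis regulators tested 0 passed for the mimic. PPARGC1A, the coactivator PGC-1alpha, was above background on the arrays of experiment 1 only and at least 1.78-fold lower in experiment 2, a direction set by the filter, which it passed through experiment 1 alone. Among 23 genes of mobile carriers and ATP export, COQ3 (0.32) and COQ4 (0.31) of ubiquinone synthesis were higher in experiment 2. So were DHODH (0.20) and ETFDH (0.21). With treatment as a term in the fit, NDUFAF4, COQ3 and COQ4 kept their calls between experiments, and NUBPL, ATPAF2, COX19, OGDH, DHODH and ETFDH lost theirs. NDUFA4L2, a relative of NDUFA4, was above background on both control arrays (3.72 and 3.84) and on neither mimic array, and was at least 1.31-fold lower with the mimic. It passed the filter through the control arrays alone, which set this direction, and no other gene of these lists passed the unadjusted threshold for the mimic.

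The 12 features named for mitochondrially encoded genes gave 0 calls for the mimic, with a median difference of 0.12 and 8 of 12 higher. The median was 0.26 in experiment 1, with 10 of 12 higher, and -0.010 in experiment 2, with 6 of 12 higher. Between experiments ATP8, an ATP synthase subunit of the mitochondrial genome, passed the unadjusted threshold (-0.72, limma adjusted p = 0.351) and lost the call with treatment as a term. It was the only call among the 12, where 14.1% of all tested features passed. The feature named COX1 is placed on chromosome 1 by the files and counts among the 12.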

How the data were processed

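Total RNA was labelled with Cy3 and hybridised to 1-colour Agilent human whole genome arrays. The authors deposited the scanner output, in which the processed signal is a linear intensity that Agilent Feature Extraction (10.7.3.1 per the file headers, 10.5.1.1 in the submitters' processing notes) had background-subtracted and detrended within each array. A second deposited file holds log2 values of the same arrays, which the authors had quantile normalized over all features.

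Here log2 processed signals of the non-control spots, without outlier-flagged spots, were quantile normalized and averaged per probe. Tested were features with a value on all 4 arrays that 1 or more groups had well above background on both of their arrays, with R 4.3.3 and limma 3.58.1, for treatment and for experiment, without a block. The threshold was an unadjusted p of 0.05, with Benjamini-Hochberg adjustment over all tested features. The fit was tested on simulated data. Arrays with the same number come from the same experiment per the labels, and their deviations from the group means correlated with r = 0.271 over 22638 features. For a gene with several features the brightest stands for it. At-least folds compare a group above background with the higher of the dim group's signal and the lowest signal well above background on each array. Named genes were core subunits, isoform sets, NDUFA4, members past the threshold in either comparison, the extremes of each complex, and list genes past the threshold. COX5B and the remaining marker genes were named after their values were seen. Members and gene lists (assembly factors, biogenesis regulators, citric acid cycle, mobile carriers and ATP export, mitochondrially encoded genes, and markers of monocytic, T and B, erythroid, fibroblast and epithelial cells) were chosen with earlier results of these data known. Alternatives were 75th percentile scaling, normexp background correction, 2 filters on dim probes, marked spots kept, the deposited table, an intensity trend, the replicate block, a plain equal-variance t-test of each averaged probe and leaving out each array. The study's own t-test, over replicate spots of a probe, was not run. The number of arrays limits the precision. Promoter and miRNA sequences are from RefSeq (GRCh38.p14), and probe positions are on hg19. The values of 1 tested gene are not reported here by name, though it counts in the totals.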

Additional observations from a re-analysis of the deposited data

Results flagged for a closer look

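The sign of the mimic difference was opposite in the experiments for 55 of 104 member features, and for 11100 of 22638 features over the whole array. Turned signs are thus about as common over the array as among members. Each experiment had 1 array per treatment, and the difference between the experiments was not tested. Opposite signs with both differences over 0.3 on the log2 scale were found for 1 feature, the dim feature of SDHC, with 0.54 in experiment 1 and -0.85 in experiment 2, a difference that was not tested either.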

How the results depend on the processing

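For the mimic, 0 member features passed the unadjusted threshold under both other scalings, both filters and with marked spots kept. The same held for the deposited table, the intensity trend and the replicate block. Over all features the share passing ran from 265 of 22638 (normexp) to 894 of 22638 (replicate block). A plain t-test gave 1 member (COX5B), where 708 of 22638 features passed in all. Members that passed when single arrays were left out are named above. The member median ranged from -0.043 to 0.033 when single arrays were left out. Between experiments 7 members passed (6 higher, 1 lower), against 3 without a filter on dim probes, 16 with the intensity trend and 13 by a plain t-test, and 0 to 5 when single arrays were left out. With the replicate block, which in this comparison pairs the arrays by treatment, 2 passed. The split was 10 higher and 0 lower with 75th percentile scaling, 9 and 0 with normexp, and 6 and 0 in the deposited table. The member median of 0.069 became 0.11 with 75th percentile scaling and lay between 0.055 and 0.079 when single arrays were left out. For the named features, 499 of 506 values for the mimic and 450 of 506 for the experiments kept their side of the threshold, with 55 and 27 changes of sign, none of a called value. The cause was not tested. Dim features such as COX4I2 bound a change poorly.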
